A study of Homo sapiens with 4 samples.

Results

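Accessible regions at the edges of protein-coding genes were described in OPM-2, an established human myeloma line of the t(4;14) type, after retinoid, pomalidomide or both. A peak was taken as a boundary peak when its summit lay on chromosomes 1 to 22 or X and within 1 kb of either boundary of a protein-coding gene body. The RefSeq table of GRCh38.p14 (hg38) gave 19974 such genes and 39948 boundaries. Of 76402 peaks in the DMSO list, 11397 were boundary peaks. The ATRA list held 11355 of 76636, the POM list 10784 of 69162 and the ATRA+POM list 10850 of 85434. Merged over the lists, 12744 of 122632 regions lay at a boundary.

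The assay was ATAC-seq, in which the transposase Tn5 cuts and tags open DNA in isolated nuclei. The vehicle group received DMSO for 72 h, and the ATRA group received 1 µM all-trans retinoic acid, the ligand of the retinoic acid receptors. The POM group received 1 µM pomalidomide, which binds the ubiquitin ligase subunit cereblon, and the ATRA+POM group received both agents at 1 µM, all for 72 h. Each group was 1 library of 1 cell line, so differences between groups could not be set against replicates and carry no p-value. The submitters' title places the study in resistance to immunomodulatory drugs.

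The start of an active gene is usually free of nucleosomes over the core promoter, where general transcription factors and RNA polymerase II assemble, and it is among the most accessible DNA in any cell. The end of a gene lies past its last exon, where transcripts are cleaved, and it is usually less accessible unless a neighbouring promoter or an enhancer lies there. Many starts sit in CpG islands and carry GC boxes bound by Sp factors, CCAAT boxes bound by NF-Y or sites of ETS proteins, while TATA boxes mark a smaller class of starts.

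The 250 bases before the start are printed below for 5 genes on which the results turn. CCT3, a subunit of the TRiC chaperonin, held the highest boundary peak of the DMSO list (chr1:156338293-156338542, minus strand). SPG7, a mitochondrial protease, and CDK12, a kinase of RNA polymerase II, held starts with some of the lowest pileups after POM relative to DMSO (chr16:89508138-89508387, plus strand; chr17:39461236-39461485, plus strand). CD1A, a lipid antigen-presenting molecule, held one of the starts with the highest pileup relative to DMSO (chr1:158248086-158248335, plus strand), and RPE65, the retinoid isomerase of the visual cycle, held a start called in neither list without POM (chr1:68449955-68450204, minus strand). Letters are RefSeq sequence of GRCh38.p14, 5′ to 3′ on the strand of the gene, and capitals mark a GC box or a CCAAT box on either strand.
CCT3: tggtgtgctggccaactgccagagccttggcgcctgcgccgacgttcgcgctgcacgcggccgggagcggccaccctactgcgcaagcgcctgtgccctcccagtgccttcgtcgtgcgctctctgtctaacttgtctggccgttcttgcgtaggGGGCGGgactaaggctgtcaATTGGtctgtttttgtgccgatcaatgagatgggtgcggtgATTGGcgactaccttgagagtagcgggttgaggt
SPG7: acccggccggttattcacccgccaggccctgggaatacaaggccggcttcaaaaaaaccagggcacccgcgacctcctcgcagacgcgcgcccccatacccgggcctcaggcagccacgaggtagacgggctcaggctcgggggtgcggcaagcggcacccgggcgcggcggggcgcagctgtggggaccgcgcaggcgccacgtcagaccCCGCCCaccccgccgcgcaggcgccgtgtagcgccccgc
CDK12: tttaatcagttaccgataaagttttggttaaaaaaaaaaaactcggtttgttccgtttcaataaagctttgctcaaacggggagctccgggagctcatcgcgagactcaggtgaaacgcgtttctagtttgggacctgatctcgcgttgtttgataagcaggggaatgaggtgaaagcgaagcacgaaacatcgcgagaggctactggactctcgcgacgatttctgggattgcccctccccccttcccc
CD1A: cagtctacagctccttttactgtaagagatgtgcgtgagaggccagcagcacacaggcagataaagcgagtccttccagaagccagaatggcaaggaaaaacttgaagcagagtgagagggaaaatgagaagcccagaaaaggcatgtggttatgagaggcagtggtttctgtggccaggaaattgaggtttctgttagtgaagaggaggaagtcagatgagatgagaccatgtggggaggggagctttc
RPE65: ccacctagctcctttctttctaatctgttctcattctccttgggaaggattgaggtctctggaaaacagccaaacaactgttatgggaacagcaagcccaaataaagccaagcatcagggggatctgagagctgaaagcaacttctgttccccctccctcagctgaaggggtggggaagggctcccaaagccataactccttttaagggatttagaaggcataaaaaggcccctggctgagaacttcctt
Matches were sought on both strands for TATAAA (9.64% of the same 250 bases in 13792 promoters), CCAAT (35.2%), the GC box GGGCGG (56.0%), the ETS core CCGGAAG (12.1%), the palindromic NRF1 site (1.55%), the YY1 site (0.428%) and the direct repeat bound by retinoic acid receptors (0%). The CCT3 sequence held 2 CCAAT boxes, both reversed, and 1 GC box, and the SPG7 sequence held 1 reversed GC box. No match overlapped another in these sequences, and the other 3 held none. The GC content was 62.4% for CCT3, 74.8% for SPG7, 48.8% for CDK12, 49.2% for CD1A and 48.8% for RPE65, with 22, 33, 18, 2 and 0 CpG dinucleotides. A match here is a run of letters and not a measured binding site. Coordinates given above are those of the printed bases, and not all summits lay in them. The CCT3 summit was at -280 bp in DMSO and ATRA, -48 bp in POM and -147 bp in ATRA+POM. CDK12 summits lay 189, 186, 181 and 66 bp past the start in DMSO, ATRA, POM and ATRA+POM. The SPG7 summit in POM lay 46 bp past the start.

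The labelled cell type was set against marker genes of several cell types. All 11 plasma cell and myeloma genes had a boundary peak in the POM and ATRA+POM lists, 10 had one in DMSO and 9 in ATRA. IRF4, a transcription factor of this list, had a start summit pileup of 371 reads in DMSO, 303 in ATRA, 94 in POM and 149 in ATRA+POM. NSD2, the methyltransferase gene at the t(4;14) breakpoint, had start pileups of 153, 107, 19 and 41 in the same order. None of the 4 liver genes had a boundary peak in any list, and the B cell genes PAX5 and MS4A1 had none either. EBF1, a factor of early B cells, had start pileups of 109, 84, 45 and 73. SPIB, another B cell gene, had a peak at its end with pileups of 284, 239, 37 and 69. CD3E of the T cell receptor had pileups of 146, 131, 97 and 95 near one of its boundaries, and the synaptic gene SYP had 130, 79, 38 and 55 at its start. In the same order, boundary peaks were found for 3, 2, 2 and 2 of 6 B cell genes and 2, 2, 1 and 1 of 6 myeloid genes. Each list held them for 2 of 4 T cell genes, 2 of 4 neuron genes and 1 of 4 epithelial genes. Over all protein-coding genes the shares were 59.8, 59.3, 56.1 and 57.3%, so counts near these say little about cell type. The myeloid gene CEBPA and the epithelial gene KRT18 had a boundary peak in every list.

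Pileup is the number of reads stacked at the summit, recovered here from the deposited fold and p-value together with the local background. Background over the genome was 2.36 reads in DMSO, 2.36 in ATRA, 0.55 in POM and 1.51 in ATRA+POM, so the POM list came from the thinnest signal. Its smallest peak was 162 bp wide, against 234, 248 and 238 bp in DMSO, ATRA and ATRA+POM. Pileups are raw unless they are said to be at the DMSO scale, which divides ATRA pileups by 0.873, POM pileups by 0.396 and those of ATRA+POM by 0.707. How much depth and peak calling contribute to the differences between lists was not tested.

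Boundary peaks made up 14.9% of the DMSO list (95% Wilson interval 14.7 to 15.2%), 14.8% of the ATRA list (14.6 to 15.1%), 15.6% of the POM list (15.3 to 15.9%) and 12.7% of the ATRA+POM list (12.5 to 12.9%). Intervals cover counting error and no difference between cultures. The ATRA+POM list had the smallest share and the most peaks away from boundaries, 74584 against 65005 in DMSO, 65281 in ATRA and 58378 in POM. The higher share in POM went with the shorter list. With every list shortened to the 69162 highest peaks, the POM share was 97.6% of the DMSO share, and with the lists as deposited it was 104.5%.

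At least 1 boundary peak was found for 11936 genes in DMSO (59.8% of 19974), 11848 in ATRA (59.3%), 11205 in POM (56.1%) and 11443 in ATRA+POM (57.3%). In every list, 10477 genes had one (52.5%), and 7078 had none in any list (35.4%). The rule uses the outer boundaries of a gene, so starts inside the gene body are not members. A gene without a boundary peak in a list can still hold a peak whose summit lies past the 1 kb limit. Of the 7078 genes, 5325 had a start in the promoter table, and 708 of them (13.3%) had a summit within 1 kb of such an inner or other listed start. B2M, TUBB, RARA and IKZF1 were among the listed genes without a boundary peak in any list.

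The gene's strand was known for 15812 genes and separated starts from ends. Starts held 8164 boundary peaks in DMSO, 8192 in ATRA, 8093 in POM and 7988 in ATRA+POM. Ends held 1096, 1077, 763 and 913. The strand was unknown for the remaining 2137, 2086, 1928 and 1949. Start counts thus differed little between the lists, while the number of end peaks was lowest in POM. A gene start was occupied in 9194, 9153, 8824 and 8933 genes and a gene end in 1463, 1466, 1106 and 1270, and 905, 915, 684 and 784 genes had both.

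Summits gathered at the start, with medians just before it. The median summit lay 19 bp upstream of the start in DMSO (offset -19 bp), 17 bp upstream in ATRA (-17), 40 bp upstream in POM (-40) and 25 bp upstream in ATRA+POM (-25). Upstream summits made up 54.9% of start peaks in DMSO (53.9 to 56.0%), 54.1% in ATRA (53.0 to 55.2%), 63.6% in POM (62.6 to 64.7%) and 56.7% in ATRA+POM (55.7 to 57.8%). From 151 to 200 bp downstream, a second smaller group of summits was seen in DMSO (284), ATRA (337) and ATRA+POM (295), and the POM list held 140 there and 171 in the next 50 bp. Within 250 bp of the start lay 76.8, 74.6, 75.4 and 76.1% of start summits. Ends showed no such focus, with 25.2, 24.4, 24.6 and 24.9% within 250 bp. Summits were sparse in the last 50 bp before the gene end (17, 8, 5 and 16) and denser from 51 to 100 bp past it (39, 34, 26 and 33).

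**Figure D1:**
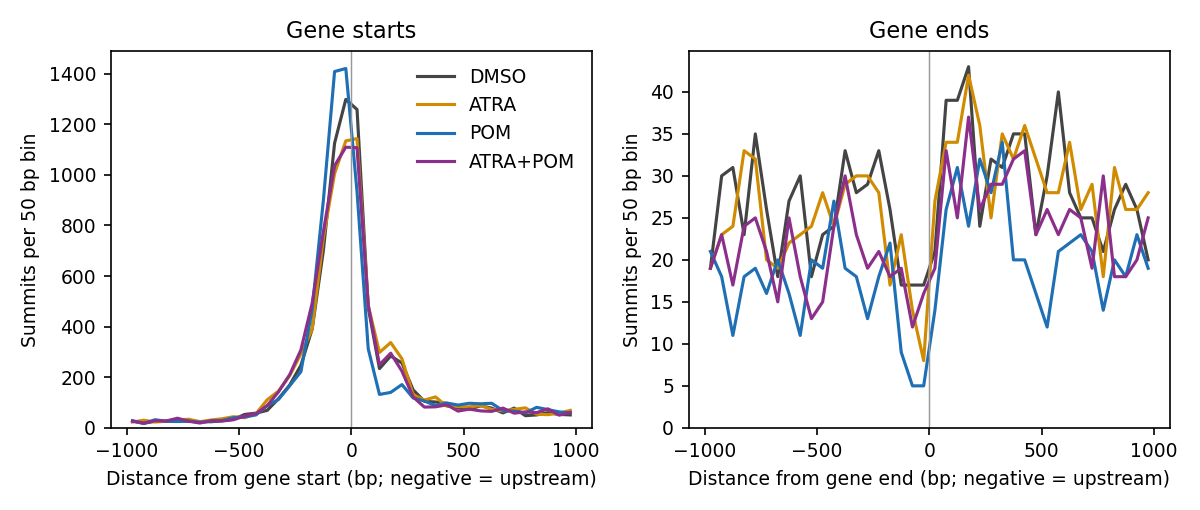
Number of peak summits per 50 bp bin against the distance from the gene start (left) or gene end (right) in bp, 1 line per library, with negative distances upstream. Start summits gather around the start, and the POM line is the highest in the last 150 bp upstream of it and the lowest in the first 250 bp downstream.

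The limit of 1 kb fell in a flat stretch. Just inside it, from 901 to 1000 bp, lay 316 peaks in DMSO, 336 in ATRA, 307 in POM and 307 in ATRA+POM, with median widths of 564.5, 651, 378 and 514 bp. Just outside, from 1001 to 1100 bp, lay 306, 316, 275 and 302 peaks, with median widths of 597, 568.5, 406 and 532 bp.

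Boundary peaks were broad. Their median width was 1042 bp in DMSO, 1009 bp in ATRA, 692 bp in POM and 889 bp in ATRA+POM, against 529, 532, 326 and 490 bp for the other peaks of the same lists. The ratio of boundary to other peaks was 1.97, 1.90, 2.12 and 1.81. Boundary peaks of the POM list were thus 66.4% as wide as those of DMSO, and other peaks were narrower as well. Start peaks had median widths of 1108, 1071, 730 and 940 bp, and end peaks 530, 533, 329 and 486 bp, close to the peaks away from boundaries. Width also follows the rank of a peak. Among the 5000 highest peaks, boundary peaks were 1204.5 bp wide in DMSO and the others 1109.5 bp, a gap much smaller than over the whole list. In the POM list the same 5000 ranks gave 844 and 668 bp, and in the ATRA+POM list 1050 and 898.5 bp. In DMSO from rank 30001 to 35000 the widths were 623 and 624 bp, and in POM they were 443 and 360 bp.

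The widest boundary peak of the DMSO list was at the start of SGMS1, a sphingomyelin synthase, at 3606 bp, with 3711 bp in ATRA, 2520 bp in POM and 3021 bp in ATRA+POM. TBL1X, a subunit of the NCoR corepressor complex, had start peaks of 3599, 3251, 1161 and 2005 bp. This start was the narrowest in POM, where its pileup had a centred log2 ratio to DMSO of -0.10. The widest boundary peak after POM was at TAGLN2, an actin-binding protein, at 2759, 2988, 2546 and 2766 bp. VIM, the intermediate filament vimentin, had 2648, 2693, 2478 and 2680 bp. KCNQ5, a potassium channel, led the ATRA+POM list with 3227 bp, against 3134 bp in DMSO, 3164 bp in ATRA and 2205 bp in POM. IL6R, the receptor of a growth factor of myeloma cells, had 2683, 2656, 2481 and 3075 bp.

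Rank was taken from the deposited −log10 q-value, with rank 1 the highest. The median boundary peak stood at percentile 10.6 of its list in DMSO, 10.5 in ATRA, 16.6 in POM and 13.2 in ATRA+POM, and other peaks stood near 55.4, 55.4, 55.4 and 54.5. Of the 1000 highest peaks, 82.6% were boundary peaks in DMSO (80.1 to 84.8%), 82.5% in ATRA (80.0 to 84.7%), 74.1% in POM (71.3 to 76.7%) and 74.7% in ATRA+POM (71.9 to 77.3%). Of the 10000 highest, the shares were 65.7, 65.1, 49.6 and 50.7%. Of the 20000 highest they were 42.1% (41.5 to 42.8%), 41.7% (41.1 to 42.4%), 35.8% (35.1 to 36.4%) and 36.0% (35.4 to 36.7%). The lists with POM therefore had fewer boundary peaks at the top, and from rank 15001 to 20000 they had more, with 12.2, 12.8, 18.0 and 17.2%. Ranked by the deposited fold over local background in place of the q-value, the 20000 highest held 31.8, 33.6, 30.4 and 28.9%, which left POM at 95.8% and ATRA+POM at 90.9% of the DMSO share, in place of 84.9 and 85.5%.

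**Figure D2:**
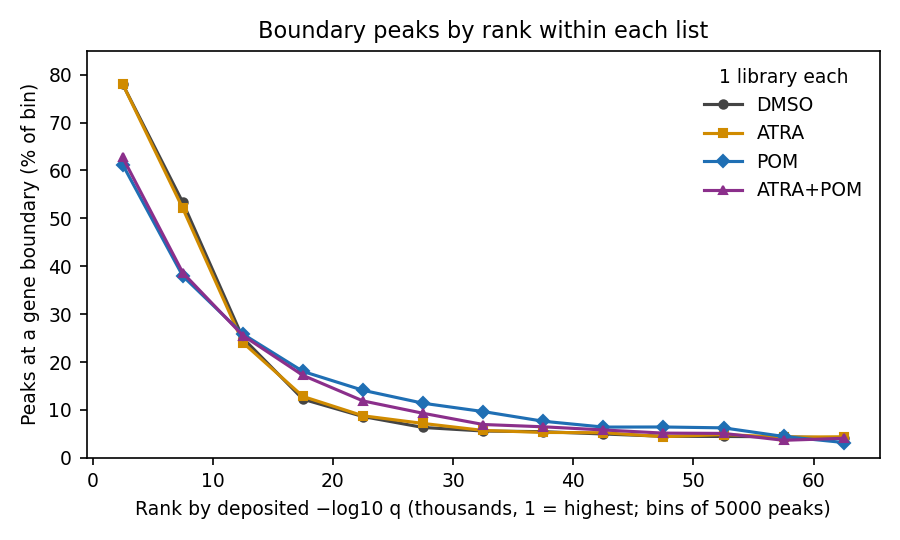
Share of peaks at a gene boundary (percent) in bins of 5000 peaks along the rank by deposited −log10 q, 1 line per library. In the first bin DMSO and ATRA lie at 78.0% and POM and ATRA+POM at 61.2 and 62.7%, and POM and ATRA+POM lie above DMSO and ATRA in the middle bins, and in the last 2 bins not both do.

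List lengths differ, so ranks were also taken among the 42930 regions called in all lists, of which 9763 lay at a boundary (7498 at a start, 564 at an end and 1701 with strand unknown). The median boundary region stood at percentile 15.1 in DMSO, 15.1 in ATRA, 21.9 in POM and 21.3 in ATRA+POM. For starts the values were 13.4, 13.4, 19.3 and 18.5, and for ends 44.7, 44.7, 53.2 and 57.4. Boundary regions held 48.8, 49.2, 40.8 and 40.7% of the summed pileup of all shared regions. DMSO and ATRA stood together in each of these measures, and so did POM and ATRA+POM.

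The size of the difference was taken as the log2 ratio of summit pileups, centred on the median of all 42930 shared regions. The median boundary region had a log2 ratio of 0.01 for ATRA against DMSO, -0.48 for POM against DMSO and -0.48 for ATRA+POM against DMSO. Regions away from boundaries had -0.01, 0.16 and 0.18. Against ATRA, the ATRA+POM library gave -0.45 at boundaries and 0.16 away from them, and against POM it gave -0.01 and 0.01. Before centring, the median boundary pileup was 190 in DMSO, 161 in ATRA, 50 in POM and 90 in ATRA+POM, and the median away from boundaries was 43, 37, 19 and 35. Centring on boundary regions sets the boundary medians to 0 and leaves regions away from boundaries higher with POM.

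More than 1.5 times lower after POM were 4191 boundary regions (42.9%), against 22.7% of all shared regions, and 462 (4.73%) were more than 1.5 times higher, against 23.8%. After ATRA+POM 4215 were lower (43.2%, against 23.1% overall) and 453 higher (4.64%, against 25.2%). After ATRA 438 were lower (4.49%, against 6.54%) and 89 higher (0.912%, against 5.47%). Set against ATRA, the ATRA+POM library had 3993 lower (40.9%, against 22.1%) and 456 higher (4.67%, against 24.8%). Set against POM it had 789 lower (8.08%, against 10.4%) and 554 higher (5.67%, against 10.8%). With the POM library left out and regions taken from the other 3 lists, the ATRA+POM median against DMSO was -0.47.

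The result depended on the quantity compared. The deposited fold was read as the summit over its local background, after the same constant is added to each. By this fold, the centred boundary medians were 0.07 (ATRA), 0.01 (POM) and -0.04 (ATRA+POM) against DMSO, and those away from boundaries were -0.03, -0.00 and 0.01. More than 1.5 times lower by that fold after POM were 7.21% of boundary regions and 10.2% of all. The local background was solved from the same deposited values as the pileup, so it is not independent of the summit. Its median around boundary regions was 16.7 reads in DMSO, 14.6 in ATRA, 3.08 in POM and 7.05 in ATRA+POM, and away from boundaries 4.10, 3.98, 1.08 and 2.86. Its centred log2 ratio at boundaries was -0.32 for POM and -0.52 for ATRA+POM against DMSO. Subtracting the background from the pileup gave boundary medians of -0.49 and -0.48. Pileup and solved background were thus both lower at boundaries with POM, and the deposited fold differed little. For POM against DMSO, the boundary median less the median away was -0.64 for pileup, -0.40 for background and 0.02 for the fold. The constant weighs most where the background is low, as in POM, so the fold does not show that the plain ratio was unchanged. Whether the DNA around the summits was itself less accessible was not tested.

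The lower pileup was graded by distance. For POM against DMSO, the median log2 ratio was -0.52 for summits up to 50 bp from a boundary, -0.44 from 51 to 100 bp, -0.40 from 501 to 1000 bp, -0.31 from 1001 to 2000 bp and -0.19 from 2001 to 5000 bp. It was 0.07 from 10001 to 50000 bp and 0.41 beyond. For ATRA+POM against ATRA, which share no library with the former pair, the first bin gave -0.50 and the bin from 501 to 1000 bp gave -0.36. The 1 kb limit thus cuts through a slope and not through a step.

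**Figure D3:**
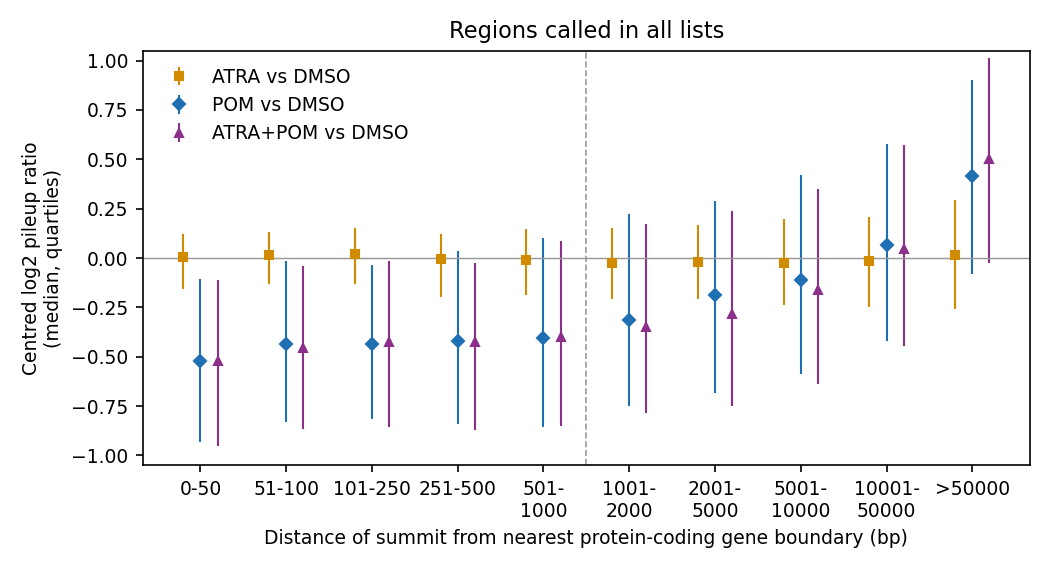
Centred log2 pileup ratio (median as points, quartiles as bars) of regions called in all lists, against the distance of the summit from the nearest protein-coding gene boundary in bp. The dashed line marks the 1 kb limit. POM and ATRA+POM against DMSO lie near -0.52 in the nearest bin and at 0.41 and 0.50 in the farthest, and ATRA lies near 0 throughout.

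The contrast was present at each level of pileup. Shared regions were split into 5 equal classes by level, and boundary regions of the fourth class had a median of -0.68 for POM against DMSO where regions away from boundaries had 0.02. In the highest class the values were -0.41 and -0.12, and in the lowest -0.12 and 0.34. Starts had a median of -0.48 and ends of -0.30 for POM, and -0.47 and -0.43 for ATRA+POM. Regions shared by 2 genes that start in opposite directions had -0.56 for POM (705 regions), and single starts had -0.47 (6510 regions). Such paired starts were also wider, at 1245 bp in DMSO, 1223 bp in ATRA, 859 bp in POM and 1093 bp in ATRA+POM, against 1144, 1120, 785 and 989.5 bp.

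The POM difference was compared without and with ATRA, in pairs of libraries that share none. Over the 9763 boundary regions, log2 ratios of POM against DMSO and of ATRA+POM against ATRA had a Pearson correlation of 0.75 and a Spearman correlation of 0.74. These regions are not independent and share their depth and base composition. Lower in both pairs by more than 1.5 times were 3025 boundary regions, which is 72.2% of the 4191 and 75.8% of the 3993. Higher in both were 231, and 14 went opposite ways. The 33167 regions away from boundaries had similar correlations, 0.74 and 0.71, with 3134 lower in both (56.3 and 57.1% of those lower in each pair) and 6467 higher in both.

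The difference was graded by base composition. Promoters of shared start regions were split into 5 classes by GC content. For POM against DMSO the median was -0.41 in the class up to 57.7% GC and -0.60 in the class from 73.3%. For ATRA+POM against DMSO it was -0.30 and -0.73, and for ATRA against DMSO 0.04 and -0.11. The part of GC content in these differences was not tested.

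Promoters with and without a start peak differed in sequence. Of 7561 promoters with a start peak in every list, 72.8% held a GC box, against 38.8% of 5020 promoters with none in any list and 58.5% of all 13792. These promoters run from 250 bases before to 50 after the start. The ETS core was in 22.9, 4.16 and 14.6%, the NRF1 site in 3.06, 0.259 and 1.84% and the YY1 site in 3.49, 0.159 and 2.02%. The CCAAT box differed less, with 39.0, 36.1 and 37.1%. TATAAA went the other way, with 5.03, 17.6 and 10.03%. The median promoter had 27 CpG dinucleotides with a start peak in every list and 8 with none. The retinoic acid repeat was in 0 of the 13792, which says only that these letters are not in these windows.

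Among shared starts, promoters with a CCAAT box had a median of -0.38 for POM against DMSO (2634 promoters) and those without had -0.55 (4181). For ATRA+POM against ATRA the values were -0.38 and -0.50. Promoters with the ETS core had -0.59 and -0.58 in the same pairs (1471 promoters), and those without had -0.45 and -0.42 (5344). With and without a GC box the values were -0.48 and -0.49 for POM against DMSO and -0.47 and -0.40 for ATRA+POM against ATRA. CCAAT boxes were in 31.7% of promoters more than 1.5 times lower after POM, in 43.9% of those between and in 44.4% of those higher, and ETS cores in 25.4, 19.4 and 8.96%.

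Among single genes with lower pileup after POM, SPG7, whose promoter is printed above, had start pileups of 346 in DMSO, 265 in ATRA, 30 in POM and 49 in ATRA+POM. DMSO and ATRA were high and both libraries with POM were low, with a centred log2 ratio of -2.19 for POM and -2.32 for ATRA+POM against DMSO. CDK12 had 231, 167, 21 and 70 (log2 -2.12 for POM and -1.22 for ATRA+POM). BLCAP, a gene known as an apoptosis-linked factor, had 228, 171, 20 and 62 at its start. PTOV1 had 296, 296, 26 and 97, and RSL1D1, a nucleolar protein, had 258, 184, 24 and 48 at a boundary of unknown strand. In these 5 regions raw pileups were lowest in POM and next lowest in ATRA+POM, and at the DMSO scale SPG7 was lowest in ATRA+POM. By the deposited fold all 5 were lower after POM, with centred log2 ratios from -0.61 to -1.11, while for ATRA+POM PTOV1 (0.30) and CDK12 (0.02) were not. Pileups were solved from this fold and its p-value, so here and below the fold is not a separate measurement.

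For ATRA+POM the 5 lowest were ATG4D, JAKMIP1, VPS16, TSR3 and CREBBP. ATG4D, an autophagy protease, had 174, 103, 12 and 21. JAKMIP1 had 170, 72, 28 and 22 at its start, and VPS16, a subunit of the HOPS tethering complex, had 162, 151, 19 and 21. TSR3, a ribosomal RNA modifying enzyme, had 150, 78, 20 and 20, and CREBBP, the histone acetyltransferase CBP, had 166, 111, 27 and 23. Centred log2 ratios against DMSO ran from -2.35 for CREBBP to -2.55 for ATG4D, and both libraries with POM were below DMSO and ATRA at each. By the deposited fold the same ratios ran from -0.69 to -1.29. VPS16 and TSR3 each share their region with a neighbouring start, PCED1A and GNPTG. Other regions named in this report also lie at a boundary of a second gene. These are TSACC for CCT3, ODR4 for TPR, TMEM203 for NDOR1, TSEN54 for LLGL2, ZFPL1 for CATSPERH and ZFYVE19 for PPP1R14D.

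Higher after POM was FMO1, a flavin monooxygenase, whose region 511 bp from the gene end had pileups of 27 in DMSO, 14 in ATRA, 53 in POM and 91 in ATRA+POM. The centred log2 ratio was 2.31 for POM and 2.25 for ATRA+POM. CD1A had start pileups of 54, 35, 104 and 172 (2.28 and 2.17). RASSF4 had 35, 25, 56 and 57 at its end. IDO1, the tryptophan-degrading enzyme induced by interferon, had 27, 25, 43 and 125 (2.01 and 2.71). BCO1, which cleaves beta-carotene to retinal, had start pileups of 21, 14, 27 and 64 (1.70 and 2.11). SELENOP, the selenium carrier of plasma, had 35, 35, 37 and 99 (1.42 and 2.0). In these 6 regions raw pileups were highest in ATRA+POM, and both libraries with POM stood above DMSO and ATRA at the DMSO scale. By the deposited fold FMO1, CD1A, RASSF4 and IDO1 had ratios from 0.48 to 1.51 for POM, and the 5 highest for ATRA+POM from 0.73 to 1.12.

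**Figure D4:**
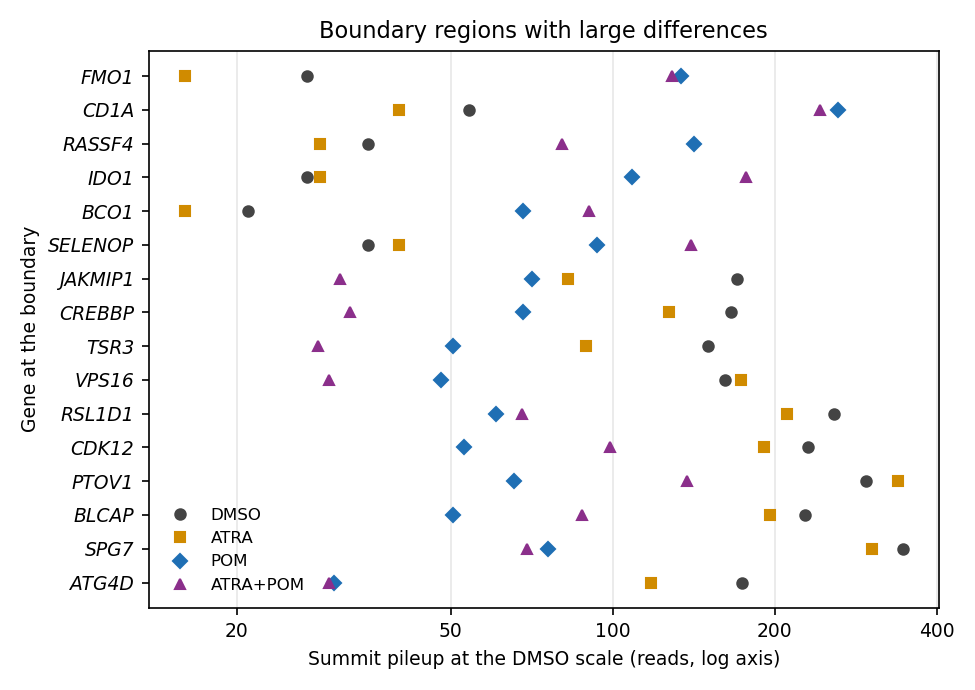
Summit pileup at the DMSO scale (reads, log axis) in each of the 4 libraries at 16 boundary regions named for their differences after POM or ATRA+POM. POM and ATRA+POM points lie to the right of DMSO and ATRA in the 6 upper rows and to the left in the 10 lower rows.

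After ATRA alone the largest lower region was the start of MED13L, a subunit of the Mediator kinase module, with pileups of 243 in DMSO, 52 in ATRA, 37 in POM and 54 in ATRA+POM (log2 -2.03 for ATRA). CEP170B had 143, 39, 29 and 39 at 1000 bp from its boundary, at the edge of the rule. LLGL2, a cell polarity protein, had 161, 47, 25 and 30, EFHD2 had 139, 42, 31 and 41, and CATSPERH had 82, 25, 23 and 14. DMSO was the highest library in these 5 regions, and by the deposited fold their ratios ran from -0.92 to -1.44. The 5 higher regions had smaller ratios, and by the deposited fold 2 of them were past 1.5 times. GARS1, the glycyl-tRNA synthetase, had 36, 63, 7 and 17 near its end (1.00), and TLR9, a receptor for unmethylated CpG DNA, had 64, 101, 12 and 28 near its start (0.85). CA5B had 24, 39, 10 and 12, ZNF717 43, 69, 21 and 64, and SPRR2A 20, 32, 13 and 27. ZNF717 and SPRR2A have close sequence relatives, so their counts are uncertain.

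Being called in one list and not in another was rarer at boundaries than elsewhere. Of boundary peaks, 546 ATRA peaks overlapped no DMSO peak (4.81%, against 19.5% of all ATRA peaks) and 724 DMSO peaks overlapped no ATRA peak (6.35%, against 19.5%). For POM 393 were gained (3.64%, against 27.2%) and 1571 lost (13.8%, against 36.6%). For ATRA+POM 516 were gained (4.76%, against 32.7%) and 1257 lost (11.0%, against 25.8%). For ATRA+POM against ATRA 576 were gained (5.31%, against 33.3%) and 1162 lost (10.2%, against 26.5%). The boundary peaks of DMSO lost after POM had a median pileup of 23, against 163 for all its boundary peaks, and the part of peak height in these shares was not tested. Ends were lost more often than starts: after POM 508 of 1096 end peaks of DMSO (46.4%) and 648 of 8164 start peaks (7.94%) overlapped no peak.

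Among the 20000 highest peaks of a list, 0 boundary peaks were gained and 3 lost after ATRA (over all such peaks 0.045 and 0.075%). After POM 14 were gained and 41 lost (all, 2.27 and 1.7%), and after ATRA+POM 10 and 23 (all, 2.52 and 0.865%). These counts depend on the overlap rule. Where a summit within 250 bp was required they were 342 and 346 after ATRA, 501 and 607 after POM and 372 and 507 after ATRA+POM, and with an overlap of 50% of the peak 25, 1200 and 198 were lost. Shares over all peaks are not given for these rules, so the counts do not show whether boundaries differ from other peaks. Peaks of the POM list were also narrower than those of DMSO, at boundaries and elsewhere. With the 1 bp overlap, ATRA+POM against ATRA gave 11 gained and 23 lost (all, 3.38 and 0.815%), and against POM 2 and 9 (all, 0.35 and 0.645%). Boundary peaks were 7152 of the 20000 in POM and 8428 in DMSO. Of the gained peaks of POM they were 14 of 453.

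The merged regions give the same data by list. All 4 lists held 9763 boundary regions, 76.6% of the 12744, and 22.7% of all regions held by every list were at a boundary (22.3 to 23.1%). DMSO and ATRA without the others shared 527 boundary regions (6.81% of such regions, 6.27 to 7.40%). POM and ATRA+POM without the others shared 132 (1.78%, 1.503 to 2.11%). The regions found with POM in both lists and in neither without it thus lay at a boundary less often than all merged regions (12744 of 122632). Shares were also low for regions of the POM list alone (2.02%) and of ATRA and ATRA+POM without the others (2.34%). Regions of the ATRA+POM list alone had 288 at a boundary (1.81%), and those of DMSO alone had 517 (5.73%).

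**Figure D5:**
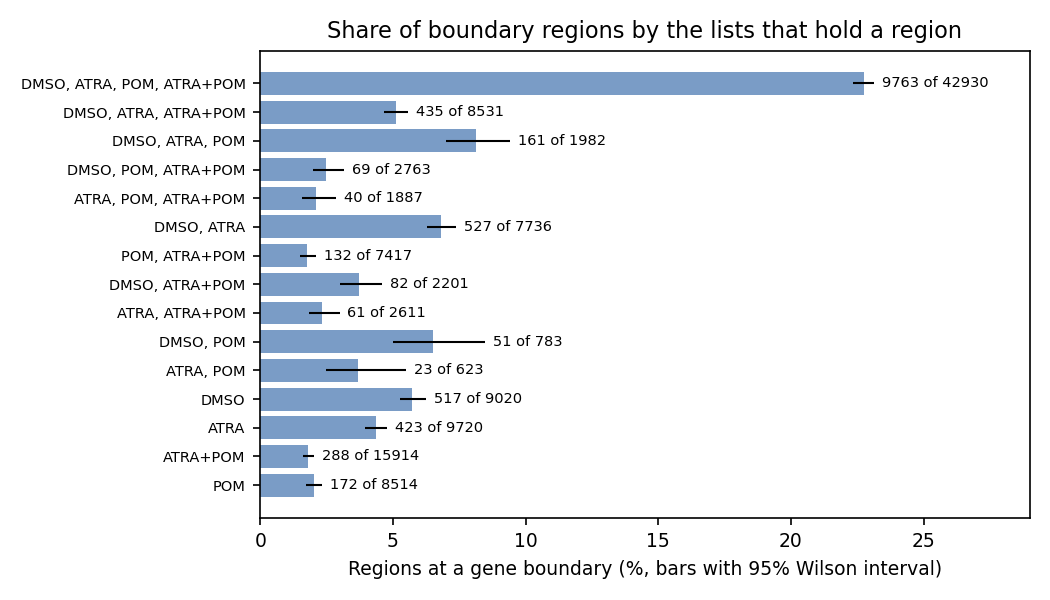
Share of merged regions at a gene boundary (percent, bars, with 95% Wilson intervals as lines) for each combination of lists that holds the region, with the number of boundary regions and of all regions beside each bar. Regions in all lists reach 22.7%, and those of POM and ATRA+POM without the others lie at 1.78%.

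PPP1R14D, a phosphatase inhibitor gene, led the boundary regions held by the lists with POM alone, with a peak near its end of pileup 58 in POM and 88 in ATRA+POM and none in DMSO or ATRA. The start of RPE65 had 31 and 72, the end of KLHL18 36 and 66, the end of PHKG1, a phosphorylase kinase subunit, 34 and 58, and HTR3A, a serotonin-gated channel, 16 and 45. CXCL8, the chemokine interleukin-8, had no start peak in DMSO and pileups of 15 in ATRA, 29 in POM and 57 in ATRA+POM. ADGRB3 had none in DMSO and 32, 18 and 69 near its end. ANKRD30BL had none in DMSO and 18, 29 and 29. The POM list alone held narrow peaks at TCAF2 (207 bp, pileup 31) and SUN1 (237 bp, pileup 45), which are uncertain. CASP5, an inflammatory caspase, and GBP4, an interferon-induced GTPase, were also among the 14, with pileups of 26 and 21 in POM, and were singled out after their values were seen.

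Among the boundary regions held by DMSO and ATRA and by neither list with POM, TPTEP2-CSNK1E, a readthrough gene that includes casein kinase 1 epsilon, had pileups of 191 and 169. UBA3, the catalytic subunit of the NEDD8-activating enzyme, had 120 and 115 at its start, NDOR1 137 and 121, SFXN3, a mitochondrial serine transporter, 107 and 76 at its end, and CD300LG 82 and 56. POGZ, a zinc finger protein, had start pileups of 228 in DMSO, 203 in ATRA and 46 in ATRA+POM and was not called in POM. UBXN6 had 135, 132 and 21, and GOLGA7B 102, 23 and 13 in the same libraries. CCDC92B had 157, 96 and 22 in DMSO, ATRA and POM and was not called in ATRA+POM, and SCAMP5 had 111, 70 and 15. RABL2B had 86, 71 and 23, with a near-identical copy that makes it uncertain. After ATRA the 3 lost peaks were at the starts of MGAT5B (110 in DMSO, 23 in POM, 23 in ATRA+POM), MICALL1 (84, 22 and 16) and PLXNB2, a semaphorin receptor (99, 11 and 18).

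Gene groups were read as counts of genes with a boundary peak. Of 31 proteasome genes 29 had one in every list, of 24 oxidative phosphorylation genes 23, and of 20 spliceosome genes 19 in DMSO and 18 in each other list. Over all protein-coding genes 52.5% had one in every list. For POM against DMSO 13 of the 29 proteasome genes were more than 1.5 times lower and 0 higher, with a median log2 ratio of -0.56. The largest were PSMB5, the catalytic subunit that bortezomib binds, with pileups of 181, 142, 20 and 64, and PSMD13, a subunit of the 19S cap, with 424, 343, 47 and 155 (-1.84 each). PSMA2 of the core ring went against its list, with 279, 225, 145 and 167 (0.39). The spliceosome median was -0.84 (10 of 18 lower, 0 higher), with SF3B3 of the SF3B complex at 168, 134, 18 and 39. The oxidative phosphorylation median was -0.56 (11 of 23 lower, 0 higher), and ATP5F1B of the ATP synthase stood against it at 312, 307, 178 and 306 (0.53). All protein-coding genes with a boundary peak in every list had a median of -0.49, with 4598 of 10477 lower and 472 higher. With centring on boundary regions the 3 list medians were -0.08, -0.36 and -0.08, and by the deposited fold the sign turned, to 0.04, 0.08 and 0.04.

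Plasma cell and myeloma genes had a median of -0.73 for POM against DMSO (7 of 10 lower, 0 higher) and of -0.72 for ATRA+POM against ATRA (7 of 9 lower). Of the 10477 genes with a boundary peak in every list, 4598 were lower and 472 higher in the first pair, and 4370 lower and 437 higher in the second. With centring on boundary regions the medians were -0.25 and -0.27, and by the deposited fold 0.23 and -0.26, so the direction for POM turned with the quantity. Housekeeping genes had pileup medians of -0.78 (8 of 11 lower, 1 higher) and -0.44 (3 of 11 lower, 0 higher) in the same pairs of libraries. XBP1, the factor of the secretory program, had start pileups of 263, 242, 50 and 79, SDC1, the surface proteoglycan CD138, 288, 270, 87 and 122, and CD38, an antibody target in myeloma, 217, 227, 65 and 148. TNFRSF17, the receptor BCMA, had 287, 274, 58 and 108. SLAMF7, another antibody target, had no boundary peak in DMSO or ATRA and 23 and 38 in POM and ATRA+POM. FGFR3, the receptor gene at the t(4;14) breakpoint, had 67 in DMSO, 16 in POM and 21 in ATRA+POM and no boundary peak in ATRA. Peaks with summits past 1 kb do not count for SLAMF7 or FGFR3, so a missing boundary peak does not show closed DNA.

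Genes of the cereblon ligase and its drug-recruited substrates had boundary peaks for 8, 7, 7 and 8 of 9 members. The shares over all protein-coding genes were 59.8, 59.3, 56.1 and 57.3%. CRBN, the receptor of pomalidomide, had start pileups of 162, 148, 84 and 170 (log2 0.39 for POM and 0.57 for ATRA+POM against DMSO). CSNK1A1 had 216, 198, 74 and 172, and ZFP91 had 327, 361, 123 and 261, with log2 ratios for POM of -0.21 and -0.07. The ligase subunits RBX1 with 312, 276, 49 and 126, CUL4A with 158, 144, 33 and 51 and DDB1 with 179, 139, 41 and 69 had -1.33, -0.92 and -0.79. The list's median for POM was -0.53, with 3 of 7 lower and 0 higher, against 4598 lower and 472 higher of 10477 genes with a boundary peak in every list. With centring on boundary regions it was -0.05 with 1 lower and 1 higher, and by the deposited fold 0.03 with 0 lower and 1 higher. IKZF3, the transcription factor degraded in the presence of pomalidomide, had 113 in DMSO, 31 in POM and 55 in ATRA+POM and no boundary peak in ATRA. These IKZF3 peaks were 1904, 195 and 445 bp wide. A peak with its summit past 1 kb does not count, so ATRA may still hold a peak near this boundary.

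Boundary peaks were found for 9, 7, 5 and 6 of 17 retinoid genes, which is 52.9, 41.2, 29.4 and 35.3%, against 59.8, 59.3, 56.1 and 57.3% of all protein-coding genes. RARB, the receptor named in the study's title, had start pileups of 85 in DMSO, 74 in ATRA, 22 in POM and 44 in ATRA+POM (log2 -0.00 for ATRA and -0.61 for POM). RARG had 149, 133, 31 and 80, and RXRA, the shared dimer partner, 70, 58, 15 and 22. CYP26A1, which breaks down retinoic acid, had a peak near its end with 68, 57, 19 and 60. RDH10, which oxidises retinol, had 443, 404, 120 and 295. CYP26B1 (48) and CRABP2 (34) had a boundary peak in DMSO alone. Of the 5 retinoid genes with a boundary peak in every list, 0 were more than 1.5 times lower and 0 higher after ATRA, against 435 and 91 of the 10477 such genes overall. ALDH1A2, which makes retinoic acid, had 18 in DMSO, 8 in ATRA and no boundary peak in either list with POM (log2 -0.97 for ATRA).

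Chromosome 1 held a larger share of the highest boundary peaks than of all boundary peaks. Of the 100 with the highest −log10 q, 81 were on it in DMSO, 62 in ATRA, 51 in POM and 48 in ATRA+POM, where it held 11.0, 10.9, 11.0 and 11.1% of all boundary peaks. Beyond position 125 Mb, on the long arm, lay 81, 62, 51 and 47 of them, a limit set after these peaks were seen. Of the 500 highest boundary peaks, chromosome 1 held 31.6, 29.4, 25.8 and 24.8%. CCT3 led DMSO with a −log10 q of 762, and had 679 in ATRA, 184 in POM and 367 in ATRA+POM. ENSA, a phosphatase inhibitor of mitosis, had pileups of 974, 930, 337 and 774, SUCO 991, 982, 448 and 853, and METTL13, a lysine methyltransferase, 714, 676, 495 and 843. ZNF687 had 957, 907, 497 and 847, EDEM3 of protein quality control in the endoplasmic reticulum 707, 647, 440 and 683, and TPR of the nuclear pore basket 695, 612, 370 and 893. Over shared boundary regions, the 513 beyond 125 Mb had median pileups of 296, 245, 88 and 155, and the 9250 others 187, 158, 49 and 87. The ratio was 1.58, 1.55, 1.80 and 1.78, and away from boundaries it was 1.31, 1.33, 1.42 and 1.41. DNA copy number was not analysed here.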

How the data were processed

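ATAC-seq peak lists of 4 OPM-2 libraries, 1 per treatment label, were used on chromosomes 1 to 22 and X, which left out 5 peaks. The authors deposited, for each library, peaks with a fold (ratio) over local background, a −log10 p-value, a −log10 q-value and a whole-number score. The genome build is hg38, as named in and credited to the submitters' processing notes. The aligner is not given in the sources used here, nor are the peak caller, its filters and any shift for the Tn5 cut. Read totals were not used here. The deposited score repeats each −log10 q-value, multiplied and cut to a whole number.

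Summit pileup and local background were solved from the deposited fold and −log10 p-value under a Poisson tail. The fold was read as pileup over background after the same constant is added to each. Both are assumptions about the caller. The solution gave the deposited value within 0.01 for 100% of peaks of each list. Overlapping peaks were merged into regions with an overlap of 1 bp. Log2 ratios of pileups were centred on the median over regions called in all lists, and 1.5 times was the limit for a difference. Genes and promoter sequences came from RefSeq tables of GRCh38.p14. The promoter table gave the strand of 15812 of 19974 genes, and 13792 starts matched a gene boundary. The overlap, distance, merging and pileup code was tested on simulated data. Python 3.11.15, numpy 2.4.6, pandas 2.3.3, scipy 1.17.1 and matplotlib 3.10.9 were used.

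The members, gene lists and rules were chosen with earlier results of these data known. Named are, per library, the 3 boundary peaks with the highest −log10 q and the 3 widest. Also named are, per treatment against DMSO, the 5 largest differences each way among shared regions whose pileup reached 20 in both libraries. The other names are the 5 highest regions held by both lists with POM alone or by both without it alone, the 5 highest peaks gained or lost among the 20000 highest, and members of the gene lists that go against most of their list. Further list members, and genes past the 5 highest, were picked after their values were seen. Some genes that these rules pick are not reported here. No test was run, as each group has 1 library.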

Additional observations from a re-analysis of the deposited data

How the results depend on the processing

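No paired analysis was possible, as each group has 1 library, and no replicate exists to leave out. Over the alternatives, 61 values stayed near the reported one, 95 moved and 2 reversed. Some settings, such as centring on boundaries or a limit of 2 times, move values by construction. These counts therefore do not measure how robust the results are. Values below are in the order ATRA, POM and ATRA+POM against DMSO unless named. The setting without the POM library and the one with the background subtracted were chosen after seeing the data.

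The boundary share relative to DMSO was 102.5% for ATRA and 110.8% for POM with a −log10 q of at least 5. For POM it was 101.5% with a limit of 2 kb, 101.8% with any base within 1 kb and 109.5% with starts alone, where ATRA+POM had 87.6%. With lists of equal length POM reversed to 97.6% and ATRA+POM had 93.1%. The POM width was 65.3% of DMSO with equal lists and 63.9% over regions called in all lists, where ATRA+POM had 83.2%. The share of the highest peaks was 75.5 and 77.2% of DMSO for POM and ATRA+POM among 10000, 91.8 and 90.1% among 30000, and 105.8, 95.8 and 90.9% when ranked by the deposited fold.

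Gained boundary peaks were 11.2, 15.5 and 12.9% when a summit within 250 bp was required, 6.01, 4.10 and 5.57% with an overlap of 50% of the peak, and 3.77% for ATRA and 2.90% for ATRA+POM with equal lists. Lost ones were 11.5, 20.01 and 17.0%, then 7.98, 29.3 and 14.8%, and with equal lists 5.19% for ATRA and 11.3% for POM. Among the 10000 highest, 2 were gained after POM and 2 after ATRA+POM, and 0, 2 and 3 were lost. Among the 30000 highest, 6, 29 and 30 were gained and 17, 157 and 99 lost. Among the 20000 highest, the 250 bp rule gave 342, 501 and 372 gained and 346, 607 and 507 lost, and the 50% rule gave 4 gained after ATRA and 25, 1200 and 198 lost. Shares over all peaks are not given for these settings.

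The next values add ATRA+POM against ATRA as the fourth. Median log2 ratios were 0.068, 0.014 (POM reversed), -0.037 and -0.091 by the deposited fold, 0 for each with centring on boundaries, and 0.015, -0.64, -0.66 and -0.62 with centring away from them. They were 0.028, -0.32, -0.25 and -0.27 where all pileups reached 30. With the background subtracted ATRA had 0.019 and POM -0.49, and without the POM library ATRA had -0.0024 and the fourth -0.42. The share lower was 1.301, 7.21, 5.53 and 5.63% by the deposited fold. For the last 3 it was 17.1, 17.9 and 15.9% with centring on boundaries and 53.3, 54.6 and 52.0% with centring away from them. It was 3.22, 30.6, 28.1 and 27.0% where all pileups reached 30, and 0.768, 19.8, 20.7 and 17.6% past 2 times. With the background subtracted it was 5.23% for ATRA, 44.0% for POM and 41.9% for the fourth, which had 39.1% without the POM library. The cause of these shifts was not tested. The smallest called pileup was 8 in DMSO, 8 in ATRA, 4 in POM and 7 in ATRA+POM, and read totals were not used here.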
